A study of Mus musculus with 10 samples.

Results

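Genes of the response to low oxygen and of glycolysis, 10 in number and chosen by name, were followed in RNA-seq of the mouse first pharyngeal arch (PA1): Slc2a1, Hk2, Pfkl, Aldoa, Pgk1, Ldha, Vegfa, Bnip3, Pdk1 and Ankrd37. All 10 were found by symbol among the 22114 protein-coding genes counted, and all 10 were among the 14561 genes tested, which had at least 10 reads in at least 1 arch. PA1, which forms the maxillary and mandibular processes of the jaw, was dissected at E10.5 from 5 wild-type (Grhl2+/+) and 5 Grhl2-/- embryos on a background given as C57BL/6 in the labels and as C57BL/6J in the methods. All of the embryos were male by the study's methods, and the null allele of Grhl2, an epithelial transcription factor, was carried in the germline and not restricted to any tissue. Each library held the RNA of a whole arch, a core of mesenchyme with a thin epithelial covering, vessels, blood and nerve tissue. The question asked of the genes was whether mutant arches carry signs of hypoxic stress.

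When oxygen is low, the alpha subunits of hypoxia-inducible factor (HIF), among them the products of Hif1a and Epas1, are no longer marked by the prolyl hydroxylases (Egln genes) for destruction through the VHL protein. They then pair with ARNT and bind hypoxia response elements in their target genes. These targets raise glucose uptake and glycolysis, turn pyruvate towards lactate and away from the mitochondrion, trim mitochondria and call in vessels. Several of the same enzymes also supply energy in any growing embryonic tissue. Their transcripts were counted in arches of both genotypes.

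With limma-voom, the main test, no member of the group passed FDR 0.01 between genotypes (DESeq2 called 1, Pdk1), but the Grhl2-/- arches differed among themselves. KO2-568, KO3-604 and KO1-628 each lay above every wild-type arch for 10 of the 10 genes. KO1-588 lay above every wild-type arch for 6 of them, and KO2-566 for 0. In KO2-566 the mean of the 10 genes was -0.13 on the log2 scale relative to the wild-type mean. It was 0.32 in KO1-588, 0.99 in KO3-604, 1.20 in KO2-568 and 1.32 in KO1-628, against -0.20 to 0.21 in the 5 wild-type arches.

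An arch is named here by its genotype (WT or KO), an embryo number and a label number, and the labels do not say what the second number stands for. Numbers 566, 568 and 588 were carried by arches of both genotypes, whereas 604 and 628 were each carried by a single Grhl2-/- arch. Levels are CPM (read counts scaled to the size of each library, with TMM scaling factors). Between 22188454 and 28596428 reads were counted per wild-type arch and between 25658389 and 28801378 per Grhl2-/- arch, so that the 10 genes were read by 78 to 43189 reads per arch. Grhl2 itself had 31.8 to 40.5 CPM in the wild-type arches and 2.80 to 6.33 CPM in the Grhl2-/- arches, so that all labels matched the level of the targeted gene (log2 fold change -3.02, FDR 2.7e-06, limma-voom). Fold changes are Grhl2-/- relative to wild-type with moderated standard errors (SE). FDR is adjusted over all 14561 genes by the Benjamini-Hochberg method, with a threshold of 0.01.

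The 10 genes span a wide range of abundance. Per kilobase of exon, wild-type arches held 243 ± 29.6 CPM of Ldha and 209 ± 22.2 CPM of Aldoa (SD, n = 5, as in all values of this kind), whose spreads overlapped. Pfkl followed at 54.4 ± 5.38, Slc2a1 at 43.0 ± 5.22 and Hk2 at 23.2 ± 2.97 CPM per kilobase, and their ranges of mean ± SD did not overlap those of their neighbours. Pdk1 at 16.6 ± 2.62, Vegfa at 13.3 ± 0.910, Pgk1 at 12.8 ± 2.88 and Bnip3 at 11.0 ± 2.32 CPM per kilobase formed a run in which neighbours did not differ beyond their spread. Ankrd37 was the least abundant, at 2.93 ± 0.486 CPM per kilobase. Pgk1 and Bnip3 share 53.9% and 37.0% of their 50-base stretches with other genes, so their levels and places in this order are uncertain.

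The core of the hypoxia response element is ACGTG or GCGTG, and both were searched on both strands in RefSeq windows (GRCm38.p6) from 250 bases before to 50 bases after each start site. CACGTG, a palindrome, counts as ACGTG on both strands. The 10 genes had 15 such windows. ACGTG was in 9 of the 15 windows, GCGTG in 8, and either of them in 12, against 19.62%, 32.39% and 43.77% of all 32851 windows. By gene, 8 of 10 had ACGTG in a window, all except Pfkl and Pdk1, and all 10 had one or other motif, against 21.78% and 46.73% of 27025 genes with such windows. A match of 5 letters is a description of the sequence and does not show binding. Windows around matches upstream of a start site are shown for 7 of the 10 genes as examples of each motif and of the palindrome; each is 61 bases, written 5′ to 3′ on the strand of the gene, with the matches in capitals (CACGT and CACGC are ACGTG and GCGTG read on the other strand).
Slc2a1: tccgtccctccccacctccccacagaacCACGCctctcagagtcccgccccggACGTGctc
Hk2: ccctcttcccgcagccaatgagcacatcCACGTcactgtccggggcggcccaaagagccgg
Aldoa: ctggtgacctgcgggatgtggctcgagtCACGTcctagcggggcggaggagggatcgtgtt
Pgk1: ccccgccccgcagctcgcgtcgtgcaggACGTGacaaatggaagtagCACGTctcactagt
Ldha: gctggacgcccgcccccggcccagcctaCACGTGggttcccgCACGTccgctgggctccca
Bnip3: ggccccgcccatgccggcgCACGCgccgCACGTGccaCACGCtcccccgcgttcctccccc
Pdk1: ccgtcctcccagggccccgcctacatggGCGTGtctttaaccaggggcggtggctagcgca
They lie at chr4:119108656-119108716 (+ strand) for Slc2a1, chr6:82774474-82774534 (- strand) for Hk2, chr7:126799348-126799408 (- strand) for the second RefSeq start of Aldoa, chrX:106186922-106186982 (+ strand) for Pgk1, chr7:46845728-46845788 (+ strand) for Ldha, chr7:138909582-138909642 (- strand) for Bnip3 and chr2:71873118-71873178 (+ strand) for Pdk1. The Slc2a1 window holds both motifs, and the Pgk1 window holds ACGTG on each strand. The Ldha and Bnip3 windows hold the palindrome CACGTG with further matches beside it. The Pdk1 window holds only GCGTG.

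Slc2a1 (ENSMUSG00000028645, chr4:119108711-119137983, GRCm38, + strand) encodes GLUT1, the glucose transporter that most embryonic cells use for uptake. Its level was 136, 129, 162, 153 and 174 CPM in WT1-566, WT5-566, WT1-568, WT8-568 and WT3-588, and this order of arches is kept below. In KO2-566, KO2-568, KO1-588, KO3-604 and KO1-628 it was 123, 324, 214, 289 and 342 CPM. A single mutant arch, KO2-566, was below all wild-type arches and the other 4 were above them, so the genotypes overlapped through that arch alone. The log2 fold change was 0.69 (SE 0.24, 95% confidence interval 0.16 to 1.22), which did not pass the test (FDR 0.0965, limma-voom).

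Hk2 (ENSMUSG00000000628, chr6:82725025-82774454, - strand) encodes hexokinase 2, which phosphorylates glucose and so keeps it in the cell. Wild-type arches held 122, 117, 155, 151 and 148 CPM and Grhl2-/- arches 111, 252, 155, 266 and 315 CPM. Here KO2-566 was again the lowest of all 10 arches, and KO1-588 was level with the highest wild-type arch. For Hk2 the log2 fold change was 0.57 (SE 0.25), with FDR 0.161 (limma-voom).

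Pfkl, Aldoa and Pgk1 encode enzymes of the middle of the pathway: the liver-type phosphofructokinase, which commits sugar to glycolysis, aldolase A, which splits it, and phosphoglycerate kinase 1, which makes ATP. Pfkl (ENSMUSG00000020277, chr10:77986947-78010083, - strand) was at 324, 349.7, 360.2, 360.3 and 422 CPM in wild-type arches and at 341, 744, 466, 619.6 and 776 CPM in Grhl2-/- arches. KO2-566 lay within the wild-type range and the other 4 mutant arches lay above it. Its log2 fold change was 0.64 (SE 0.20; FDR 0.0688, limma-voom).

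Aldoa (ENSMUSG00000030695, chr7:126795234-126800751, - strand) was at 539, 574, 592, 628 and 709 CPM in wild-type arches and at 599, 1274, 773, 1059.7 and 1388 CPM in Grhl2-/- arches. The order of the mutant arches was the same as for Pfkl, with KO2-566 inside the wild-type range. Aldoa had a log2 fold change of 0.68 (SE 0.20; FDR 0.0602, limma-voom), the lowest FDR among the 10 genes.

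Pgk1 (ENSMUSG00000062070, chrX:106187100-106203699, + strand) was at 23.0, 27.8, 23.7, 39.1 and 30.0 CPM in wild-type arches and at 29.3, 69.2, 33.5, 55.5 and 76.0 CPM in Grhl2-/- arches. Both KO2-566 and KO1-588 fell inside the wild-type range, whose upper end was set by WT8-568. Its estimate was 0.79 on the log2 scale (SE 0.27; FDR 0.0933, limma-voom). Of the 50-base stretches in Pgk1 exons, 53.9% also occur in other genes, nearly all in the processed pseudogene Pgk1-rs7, so its level is uncertain where the counting could split or drop such reads.

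Ldha and Pdk1 act where glycolysis ends. Lactate dehydrogenase A turns pyruvate into lactate, and pyruvate dehydrogenase kinase 1 switches off the enzyme that would feed pyruvate to the mitochondrion. Ldha (ENSMUSG00000063229, chr7:46841475-46855627, + strand), the most abundant of the 10, was at 698, 744, 799, 819 and 956 CPM in wild-type arches and at 739.7, 1537, 1027, 1296 and 1620.3 CPM in Grhl2-/- arches. Once more 4 mutant arches were above every wild-type arch and KO2-566 was near the bottom of the wild-type range. The log2 fold change was 0.58 (SE 0.19; FDR 0.0788, limma-voom).

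Pdk1 (ENSMUSG00000006494, chr2:71873224-71903858, + strand) was at 113, 116, 126, 127 and 164 CPM in wild-type arches and at 132, 347, 172, 284 and 421 CPM in Grhl2-/- arches. KO1-588 was only just above WT3-588, which shares its label number and was the highest wild-type arch. Pdk1 had a log2 fold change of 0.95 (SE 0.28; FDR 0.0607, limma-voom). It was the only member that DESeq2, with FDR 0.00682, placed past the threshold.

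Vegfa, Bnip3 and Ankrd37 lie outside glycolysis. Vegfa (ENSMUSG00000023951, chr17:46016993-46032369, - strand) encodes the growth factor that attracts and maintains vessels. It was at 58.3, 51.1, 60.6, 60.0 and 55.6 CPM in wild-type arches and at 55.4, 117, 73.1, 103 and 121 CPM in Grhl2-/- arches. Its wild-type values were the tightest of the 10 genes (SD 0.10 on the log2 scale), and KO2-566 was the only mutant arch within them. The log2 fold change was 0.66 (SE 0.20; FDR 0.0609, limma-voom).

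Bnip3 (ENSMUSG00000078566, chr7:138890836-138909519, - strand) encodes a protein of the outer mitochondrial membrane that promotes removal of mitochondria. It was at 19.0, 21.4, 24.2, 27.7 and 32.3 CPM in wild-type arches and at 20.5, 94.2, 31.9, 80.8 and 114 CPM in Grhl2-/- arches. The highest mutant arch held 5.57 times the level of the lowest, the widest range of the 10 genes, whereas this ratio was 1.70 among wild-type arches. The log2 fold change was 1.18 (SE 0.47), with FDR 0.130 (limma-voom). Exons of Bnip3 share 37.0% of their 50-base stretches with other genes, mostly the lincRNA AC160336.1.

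Ankrd37 (ENSMUSG00000050914, chr8:45996902-46005707, - strand) encodes an ankyrin-repeat protein known chiefly as a HIF target. Wild-type arches held 3.54, 4.11, 4.53, 4.89 and 5.51 CPM and Grhl2-/- arches 3.67, 10.46, 4.64, 9.0 and 9.30 CPM. KO2-566 and KO1-588 lay within the wild-type range and the remaining arches above it. The log2 fold change was 0.59 (SE 0.30, 95% confidence interval -0.08 to 1.25; FDR 0.224, limma-voom), from 78 to 294 reads per arch.

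**Figure D1:**
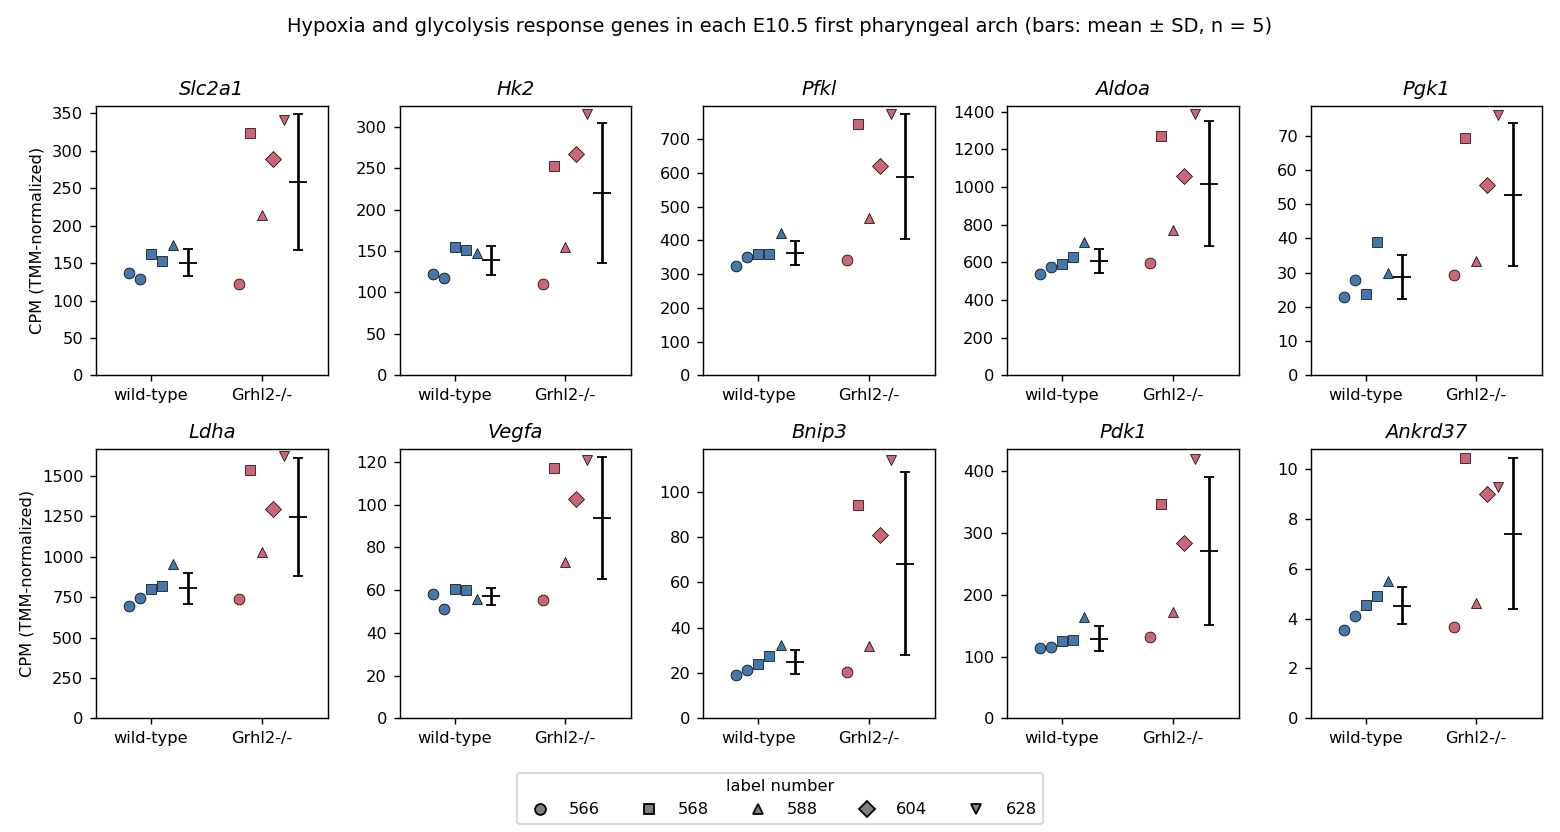
TMM-normalized CPM (linear axes from 0) of the 10 genes in each arch, by genotype, with the marker shape giving the label number and the bars the mean ± SD of 5 arches. In every panel KO2-568, KO3-604 and KO1-628 lie above the wild-type arches, while KO2-566 lies among or below them.

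Counted together, 0 of the 10 genes passed FDR 0.01 in either direction with limma-voom, where 0.879% of the 14561 genes tested were called higher and 1.09% lower. At an unadjusted p below 0.05, 9 of the 10 were higher, against 14.2% of all genes. EdgeR's quasi-likelihood test called 0 of them higher (0.975% of all genes) and DESeq2 called 1 (3.57%). All 5 Grhl2-/- arches lay above all 5 wild-type arches for 0 of the 10 genes, against 4.22% of all genes. At least 3 lay above for 10 of 10, against 22.5%. The median log2 fold change was 0.67 over the 10 genes and 0.01 over all genes tested. With the label number as a block, the median over the 10 genes was 0.45 (lowest FDR 0.108, limma-voom).

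**Figure D2:**
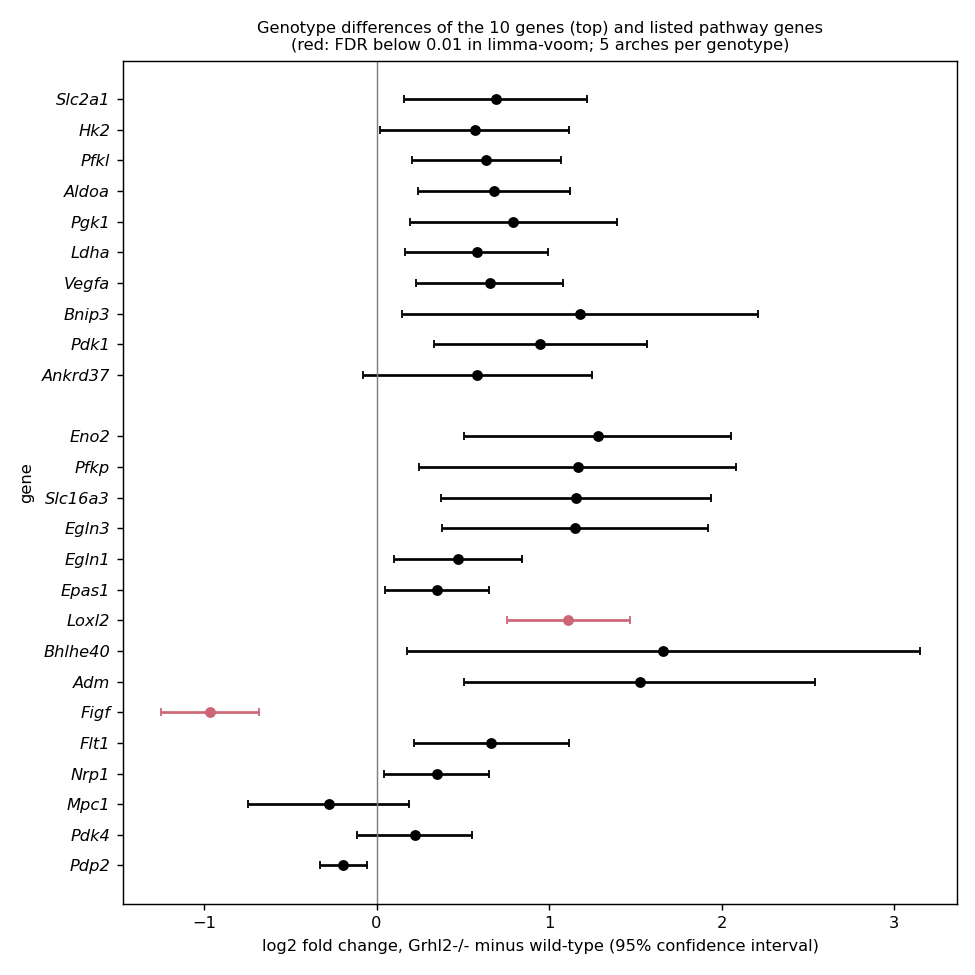
Log2 fold change, Grhl2-/- relative to wild-type, with its 95% confidence interval from limma-voom (5 arches per genotype), for the 10 genes above the gap and for pathway genes below it. Only Loxl2, at 1.11, and Figf, at -0.97, passed FDR 0.01, while the estimates of the 10 genes lie between 0.57 and 1.18.

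Mutant arches were more spread than wild-type arches for these genes. The SD of log2 CPM, as a median over the 10 genes, was 0.61 among Grhl2-/- arches and 0.18 among wild-type arches. Over all genes tested the corresponding medians were 0.13 and 0.12. The SD was larger among Grhl2-/- arches for 10 of the 10 genes, and for 58.5% of all genes.

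A single arch decided which side of the threshold some members took. Without KO2-566, 5 of the 10 genes passed FDR 0.01 with limma-voom, namely Slc2a1 (log2 fold change 0.94, FDR 0.00340), Pfkl (0.82, FDR 0.00702), Aldoa (0.86, FDR 0.00934), Ldha (0.75, FDR 0.00836) and Vegfa (0.83, FDR 0.00595). In that fit, 143 of the 14496 genes tested were called higher. The arch left out, KO2-566, was the mutant arch with the lowest mean of the 10 genes. Leaving out any of the other 9 arches gave 0 of the 10.

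Compared within a label number, the difference was larger in 568 than in the other 2 numbers that held both genotypes. In 568, KO2-568 exceeded the mean of its 2 wild-type arches for 10 of 10 genes, by 0.72 to 1.86 on the log2 scale with a median of 1.05. In 566, KO2-566 exceeded the mean of its 2 wild-type arches for 7 of 10 genes, with differences from -0.11 to 0.21 and a median of 0.02. In 588, KO1-588 exceeded WT3-588 for 8 of 10 genes, with differences from -0.25 to 0.39 and a median of 0.11. KO3-604 and KO1-628 had no wild-type arch of the same number, so for those 2 arches the number and the genotype cannot be told apart.

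The 10 genes moved together from arch to arch. After subtraction of genotype means, Pearson's r between 2 of them over the 10 arches ranged from 0.82 (Slc2a1 with Pgk1) to 0.99 over the 45 pairs, with a median of 0.95. Within the 5 Grhl2-/- arches the median was 0.98. Within the 5 wild-type arches the median was 0.76, and the range was from -0.11 to 0.99. All of these values are a description of 10 libraries, which the genes share along with their depth.

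Outside the pathway lists, the genes whose pattern was most like the mean of the 10 were sought among 9863 genes with a mean of at least 8 CPM. They were Grhpr (r 0.989), Pgm2 (r 0.989), Shmt2 (r 0.976), Map2k1 (r 0.973) and Prelid2 (r 0.964), over 10 arches with genotype means subtracted. Pgm2, which encodes a phosphoglucomutase, was at 60.2, 65.0, 70.7, 73.4 and 84.0 CPM in wild-type arches and at 59.4, 169, 84.4, 122 and 191 CPM in Grhl2-/- arches, in the same order of arches as above. Grhpr encodes glyoxylate and hydroxypyruvate reductase, and Shmt2 the mitochondrial serine hydroxymethyltransferase. The 5 were picked for their r in these same arches, so the high r follows from the choice. With limma-voom 0 of the 5 passed FDR 0.01, and 3 were higher at an unadjusted p below 0.05 (14.2% of all genes). DESeq2 called 1 higher, Prelid2 (FDR 0.00735), against 3.57% of all genes.

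The wider pathway was read from 5 lists that leave out the 10 genes, 91 tested genes in all. Of these, 1 passed FDR 0.01 upwards (0.879% of all genes) and 1 downwards (1.09%) with limma-voom, and edgeR gave the same counts. The limma-voom counts were near those shares. DESeq2 called 16 higher (3.57% of all genes) and 2 lower (3.8%). At an unadjusted p below 0.05, 42 were higher (14.2% of all genes) and 9 lower (14.3%). Their median log2 fold change was 0.27.

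Of 23 further glycolysis genes (enzymes, transporters and phosphofructokinase-2 isoforms), 0 passed FDR 0.01 with limma-voom or edgeR and 4 were called higher by DESeq2 (3.57% of all genes). At an unadjusted p below 0.05, 11 were higher (14.2% of all genes) and 1 was lower (14.3%), and the median log2 fold change was 0.23. Eno2, the neuronal enolase, had the largest estimate at 1.28 (FDR 0.0490, limma-voom), although at only 5 to 58 reads per arch. Its r with the mean of the response genes was only 0.139, with genotype means subtracted. KO3-604, at 1.12 CPM, lay below WT5-566, at 1.16 CPM. The lowest Eno2 levels, 0.227 and 0.575 CPM, were in WT1-566 and WT1-568, the arches lowest in the sensory neuron markers given below. Among mutant arches, KO1-588 was lowest in those markers but held 2.07 CPM of Eno2. The part of neurons in the Eno2 level was not tested. Slc16a3, which encodes the lactate exporter MCT4, was at 70.7, 81.2, 101, 102 and 133 CPM in wild-type arches and at 87.7, 307, 155, 296 and 361 CPM in Grhl2-/- arches. Within each genotype its order of arches was that of Ldha, the enzyme that makes its substrate. The estimate was a log2 fold change of 1.15 (FDR 0.0688, limma-voom). Pfkp, the platelet-type phosphofructokinase, had a log2 fold change of 1.17 (FDR 0.102, limma-voom), and all 5 Grhl2-/- arches, at 13.7 to 58.4 CPM, lay above the wild-type arches, at 9.27 to 13.5 CPM.

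Of 11 genes of the oxygen-sensing machinery, 0 passed FDR 0.01 with limma-voom or edgeR and 1 was called higher by DESeq2 (3.57% of all genes), with 5 higher (14.2%) and 1 lower (14.3%) at an unadjusted p below 0.05 and a median log2 fold change of 0.12. Egln3, a prolyl hydroxylase that is itself a HIF target, was at 7.72, 6.22, 8.30, 7.96 and 9.38 CPM in wild-type arches and at 9.17, 29.6, 11.7, 19.7 and 27.0 CPM in Grhl2-/- arches (log2 fold change 1.15, FDR 0.0666, limma-voom). Again KO2-566 was the only mutant arch within the wild-type range. Egln1, the main prolyl hydroxylase, had a log2 fold change of 0.47 (FDR 0.102, limma-voom), and Epas1, which encodes HIF-2 alpha, of 0.35 (FDR 0.127, limma-voom).

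Hif1a, chosen after its values were seen, was at 362, 358, 359.9, 361 and 375 CPM in wild-type arches. In Grhl2-/- arches it was at 358, 326, 366, 317 and 308 CPM. The lowest levels were in KO2-568, KO3-604 and KO1-628, the arches in which the 10 genes stood highest, and the log2 fold change was -0.12 (FDR 0.138, limma-voom). HIF-1 alpha is controlled mainly at the protein, which these data do not measure.

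Of 33 other known targets of HIF, 1 passed FDR 0.01 upwards (0.879% of all genes) and 0 downwards (1.09%) with limma-voom. EdgeR gave the same counts. DESeq2 called 10 higher (3.57% of all genes) and 0 lower (3.8%). At an unadjusted p below 0.05, 19 were higher (14.2%) and 0 lower (14.3%), 32 of 33 estimates were above 0 (52.7% of all genes), and the median log2 fold change was 0.42. The gene that passed was Loxl2 (ENSMUSG00000034205, chr14:69609068-69695834, + strand), which encodes a lysyl oxidase of the extracellular matrix. It was at 49.4, 54.3, 50.8, 50.9 and 55.9 CPM in wild-type arches and at 81.2, 144, 94.2, 109.6 and 154 CPM in Grhl2-/- arches. Unlike the 10 genes it did not overlap between genotypes, as KO2-566 was also above every wild-type arch (log2 fold change 1.11, SE 0.16, FDR 0.00234, limma-voom). Its exons share 45% of their 50-base stretches with other genes, mostly the pseudogene Gm21451.

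Loxl2 kept its direction but missed FDR 0.01 in some fits, as when the label number was a block (log2 fold change 0.997, FDR 0.0156, limma-voom). Bhlhe40, a transcriptional repressor, was at 2.04, 1.78, 2.16, 2.87 and 1.95 CPM in wild-type arches and at 2.46, 16.7, 2.68, 10.7 and 13.0 CPM in Grhl2-/- arches. Adm, which encodes the vasodilator peptide adrenomedullin, was at 0.590, 1.20, 0.683, 1.09 and 0.732 CPM in wild-type arches and at 1.14, 4.59, 1.46, 3.59 and 3.25 CPM in Grhl2-/- arches. Both were highest in KO2-568, KO3-604 and KO1-628. In KO2-566 and KO1-588 Bhlhe40 was within the wild-type range, as was Adm in KO2-566, whereas KO1-588 was above every wild-type arch for Adm. Their log2 fold changes were 1.66 for Bhlhe40 (FDR 0.137, limma-voom) and 1.52 for Adm (FDR 0.0653, limma-voom), neither past the threshold, whereas DESeq2 called both (FDR 0.00292 and 0.000640).

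**Figure D3:**
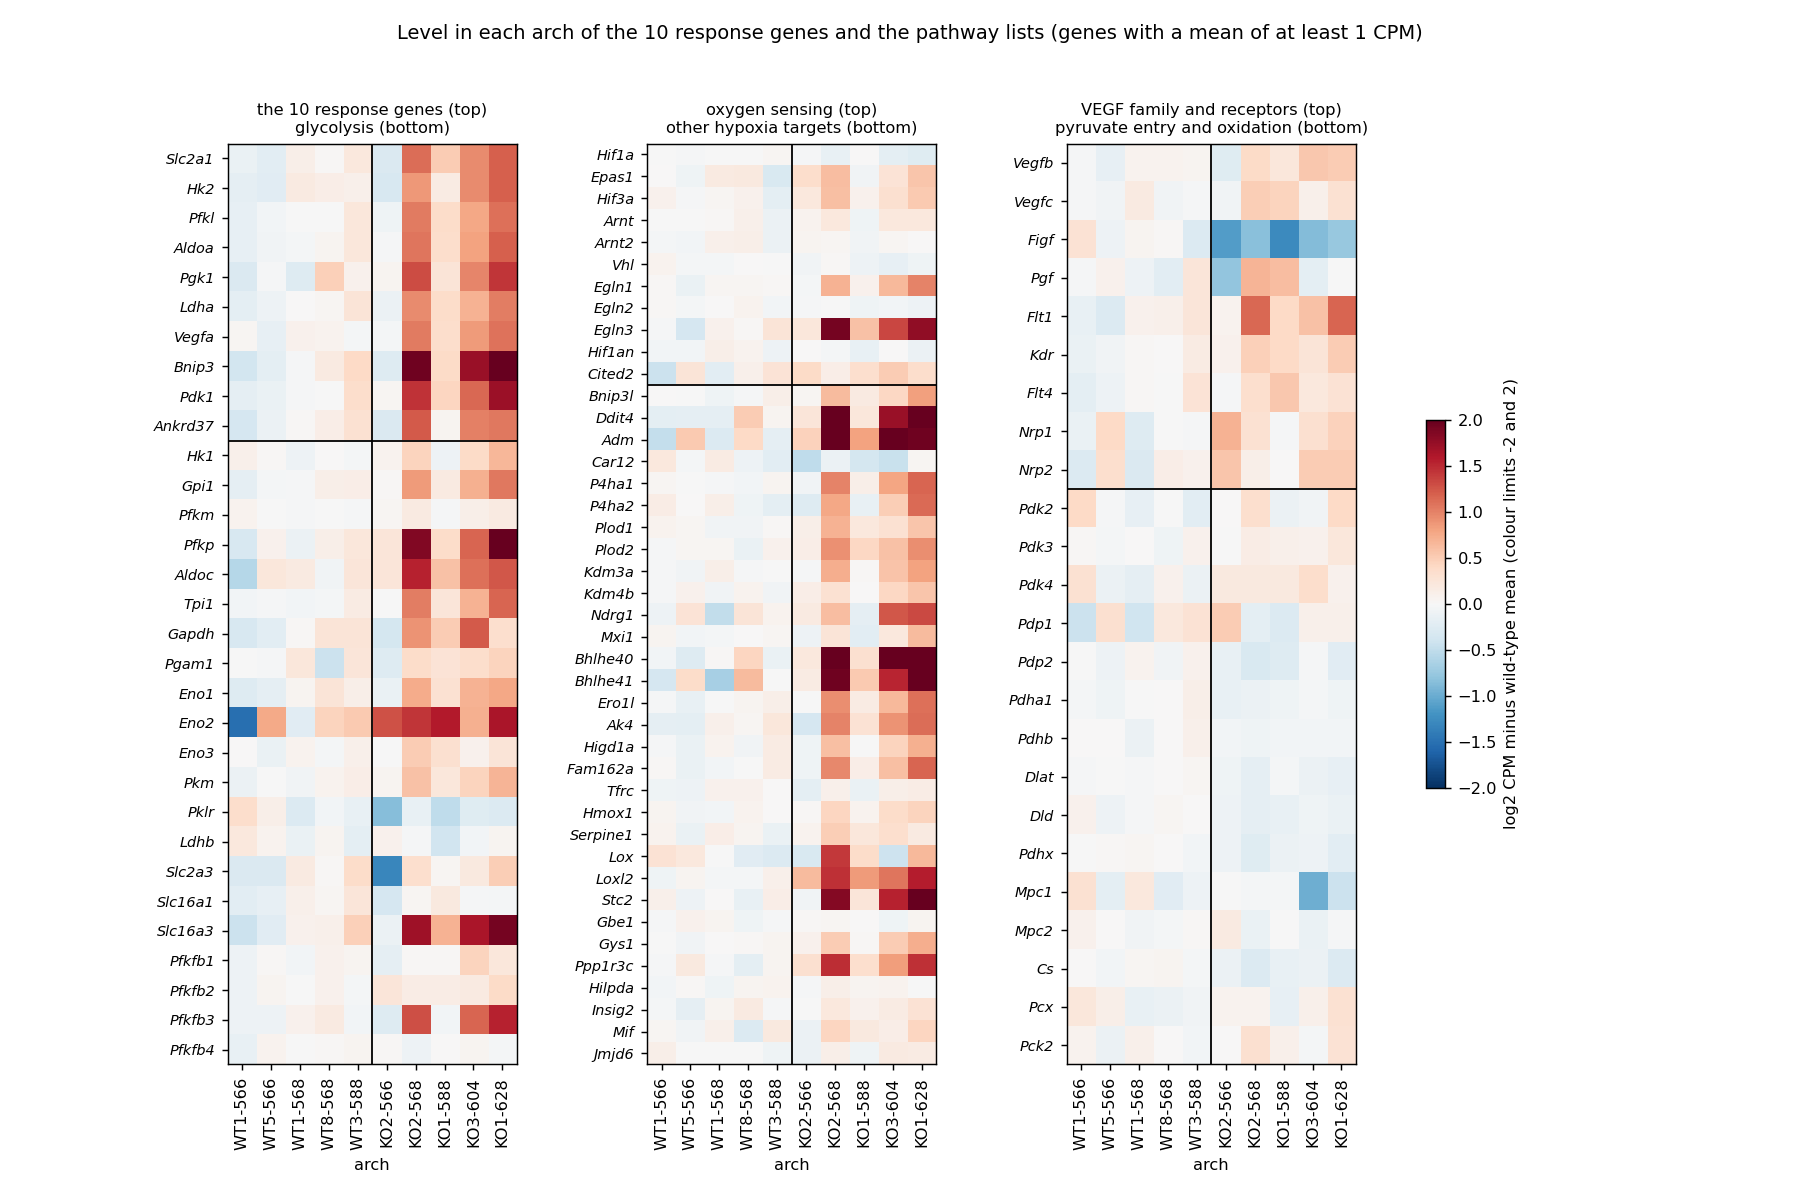
Log2 CPM minus the wild-type mean in each of the 10 arches (columns, wild-type left of the vertical line) for the 10 genes and the genes of the 5 pathway lists with a mean of at least 1 CPM (rows), with colours limited to -2 and 2. The red cells of the 10 genes and of many HIF targets stand in KO2-568, KO3-604 and KO1-628, while Figf is lower in all 5 Grhl2-/- arches.

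Among 9 genes of the VEGF family and its receptors, Vegfa apart, 1 passed FDR 0.01 with limma-voom or edgeR. Its direction was down (1.09% of all genes with limma-voom). DESeq2 also called Kdr, a VEGF receptor, higher (FDR 0.00117, against 3.57% of all genes called higher). The gene that was lower was Figf (ENSMUSG00000031380, chrX:164373378-164402650, + strand; the older symbol of Vegfd), a lymphatic growth factor, at 10.7, 8.14, 9.13, 8.93 and 7.28 CPM in wild-type arches and at 4.05, 4.87, 3.60, 4.79 and 5.15 CPM in Grhl2-/- arches. The genotypes did not overlap, and the log2 fold change was -0.97 (SE 0.13, FDR 0.00140, limma-voom). At an unadjusted p below 0.05, 6 of the 9 were higher (14.2% of all genes) and 1 was lower (14.3%), and their median log2 fold change was 0.27. Flt1, the VEGF receptor that is also a HIF target, had a log2 fold change of 0.67 (FDR 0.0682, limma-voom) and Nrp1, a co-receptor, of 0.35 (FDR 0.129, limma-voom).

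The list of 15 genes of pyruvate entry and oxidation, which also holds kinases and phosphatases that set the activity of pyruvate dehydrogenase, and Pcx and Pck2 of the route from pyruvate to phosphoenolpyruvate, had estimates on both sides of 0, with 9 of the 15 below it (47.3% of all genes). Those above 0 were Pdk2, Pdk3, Pdk4, Pdp1, Pcx and Pck2, and those below it were Pdp2, the carrier genes Mpc1 and Mpc2, the pyruvate dehydrogenase complex genes Pdha1, Pdhb, Dlat, Dld and Pdhx, and Cs. With limma-voom 0 passed FDR 0.01, as with edgeR, while DESeq2 called 1, lower, the citrate synthase gene Cs (FDR 0.000773, against 3.8% of all genes). Of the 15, 6 were lower and 1 was higher at an unadjusted p below 0.05 (14.3% and 14.2% of all genes), and their median log2 fold change was -0.06. Mpc1, a subunit of the mitochondrial pyruvate carrier, had an estimate of -0.28 (FDR 0.411, limma-voom). Pdk4, a kinase related to Pdk1, had an estimate of 0.22 (FDR 0.362, limma-voom), and Pdp2, the phosphatase that opposes these kinases, of -0.19 (FDR 0.0757, limma-voom). All 5 Grhl2-/- arches lay below all 5 wild-type arches for 3 of the 15 genes, Cs, Dlat and Pdhx (named after their values were seen), against 4.66% of all genes. The summed level of the list was 1157 to 1208 CPM in wild-type and 1068 to 1133 CPM in Grhl2-/- arches, which did not overlap.

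Arch by arch, the lists followed the 10 genes to different degrees. Relative to the wild-type mean, the mean of the 33 HIF targets was 0.03 in KO2-566, 0.87 in KO2-568, 0.17 in KO1-588, 0.63 in KO3-604 and 0.98 in KO1-628 on the log2 scale. Glycolysis genes gave 0.00, 0.60, 0.13, 0.37 and 0.55 in the same arches, and the unweighted mean of the pyruvate genes, whose estimates went both ways, lay between -0.07 and 0.01 in all 5. The same arches were thus high for the HIF targets, the glycolysis genes and the 10.

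**Figure D4:**
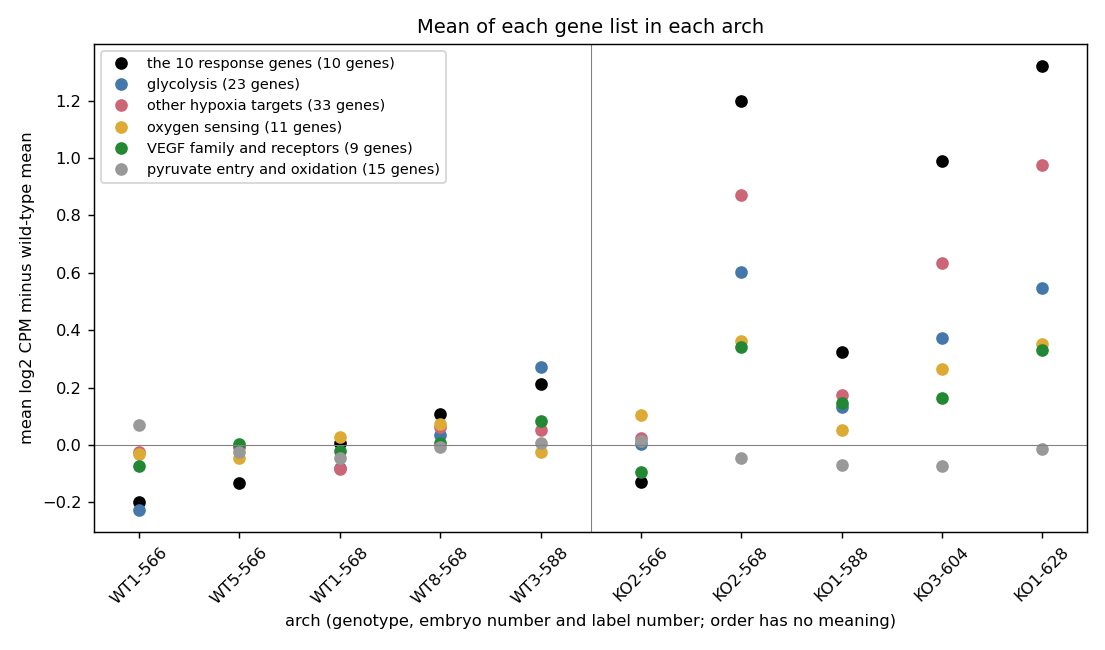
Mean log2 CPM of each gene list minus its wild-type mean (y axis) in each arch (x axis), 1 point per list and arch. The 10 response genes reach 1.20, 0.99 and 1.32 in KO2-568, KO3-604 and KO1-628 and stay between -0.20 and 0.32 in the other 7 arches.

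Because whole arches were sequenced, fewer cells of a type and less RNA per cell cannot be told apart, and markers of 8 cell types were therefore read beside the 10 genes. All 63 markers had at least 1 read in every arch, and DESeq2 and edgeR called 0 in the lists given below as 0 called, except where stated. Of 9 epithelial markers, 5 passed FDR 0.01 with limma-voom and were lower (1.09% of all genes). The summed level of the 9 was 172 to 265 CPM in Grhl2-/- arches against 329 to 443 CPM in wild-type arches. In KO2-566, KO2-568, KO1-588, KO3-604 and KO1-628 the epithelial sum was 172, 259, 265, 194 and 193 CPM, and the sum of the 10 genes was 2153, 4769, 2949.6, 4062 and 5182 CPM.

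Sensory neuron markers had 0 of 10 called (1 higher at an unadjusted p below 0.05, against 14.2% of all genes), with sums of 40.6 to 958 CPM in wild-type and 314 to 1227 CPM in Grhl2-/- arches. The sum was lowest in WT1-566 and WT1-568, at 47.1 and 40.6 CPM, and the mean of the 10 genes relative to the wild-type mean was -0.20 and 0.01 in those 2 arches. Among mutant arches the neuron sum was 356 CPM in KO2-568 and 314 CPM in KO1-588, and highest in KO2-566. Ganglion glia markers, 0 of 6 called, had sums of 46.1 to 201 CPM in wild-type and 77.4 to 229 CPM in Grhl2-/- arches.

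Endothelial markers, among them Kdr of the VEGF receptors, had 0 of 8 called (5 higher at an unadjusted p below 0.05, against 14.2% of all genes, and 3 called higher by DESeq2, against 3.57%), with sums of 353 to 397 CPM in wild-type and 393 to 453 CPM in Grhl2-/- arches, lowest among the mutants in KO2-566. Primitive erythroid markers, 0 of 9 called and 9 of 9 with estimates below 0 (47.3% of all genes), 5 of them at an unadjusted p below 0.05 (14.3%), had sums of 3760 to 6397 CPM and 2960.1 to 3999 CPM. Mesenchymal markers, 1 of 9 called lower (1.09% of all genes), had sums of 1587 to 2146 CPM and 1466 to 1737 CPM. Of them, 3 were lower at an unadjusted p below 0.05 (14.3% of all genes) and 2 were called lower by DESeq2 (3.8%). Macrophage markers, 0 of 6 called, had sums of 21.4 to 31.2 CPM and 17.5 to 58.8 CPM, and muscle progenitor markers, 0 of 6 called (1 lower at an unadjusted p below 0.05, against 14.3% of all genes), 36.8 to 47.1 CPM and 36.9 to 62.4 CPM. The part of these cell types in the levels of the 10 genes was not tested.

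**Figure D5:**
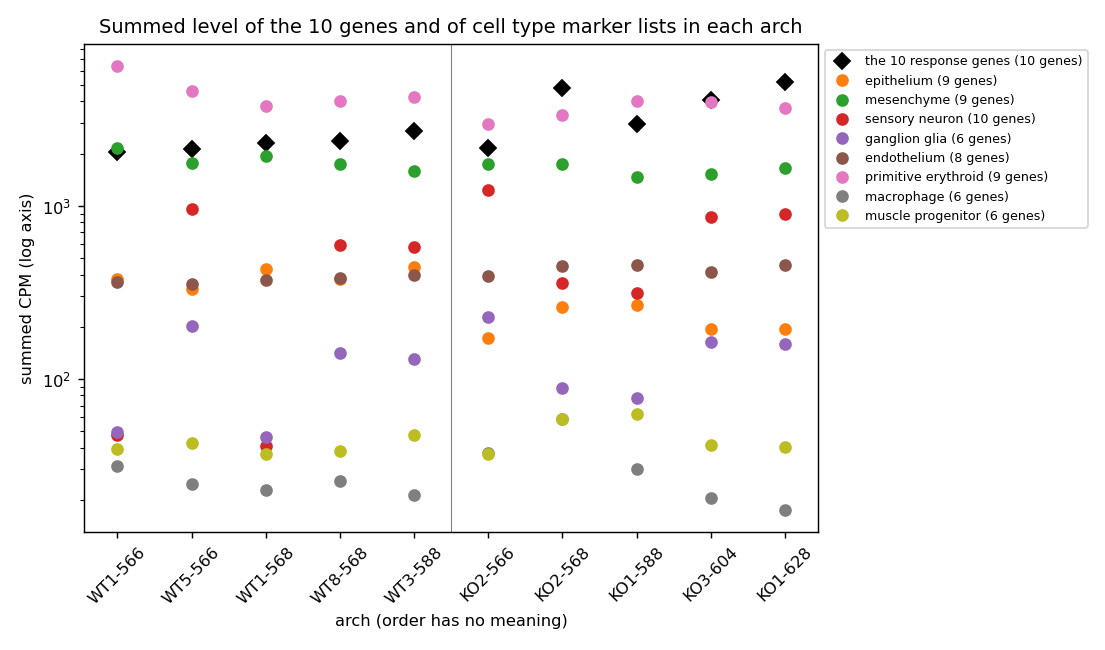
Summed CPM (log axis) of the 10 response genes and of 8 cell type marker lists in each arch, 1 point per list and arch. The sum of the 10 runs from 2036 to 2697 CPM in wild-type arches and from 2153 to 5182 CPM in Grhl2-/- arches, while the sensory neuron sum is lowest in WT1-566 and WT1-568.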

How the data were processed

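PA1 of 10 male embryos at E10.5 (5 wild-type, 5 Grhl2-/-) was sequenced by the authors from stranded, ribosomal RNA-depleted libraries as single-end reads of 50 bases. Per the labels and methods, the authors aligned reads to GRCm38 with STAR and deposited unnormalized featureCounts counts per protein-coding gene, counted by strand; versions and annotation release were not given in the sources used here, apart from edgeR 3.18.1 and limma 3.32.7 in the submitters' processing notes. A second deposited table holds the authors' own comparison (log2 fold changes, average expression and FDR) and was not used.

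TMM factors (edgeR 4.0.16) and voom weights were computed, and genotype, the only term, was tested by limma 3.58.1 (lmFit, eBayes; R 4.3.3) on genes with at least 10 reads in at least 1 arch. CPM for log2 values used a prior count of 0.5. The method was tested on simulated data first. Limma-voom p-values set the genotype difference against the spread between these embryos, pooled over both genotypes and moderated across genes. Gene lists hold pathway members by textbook knowledge; the members and lists were chosen with earlier results of these data known. Named beside the 10 are list genes past FDR 0.01 and, where fewer than 3, those with the largest fold changes at a mean of at least 1 CPM, the 5 genes most alike in pattern, and Grhl2. Genes mentioned outside this rule, among them Hif1a, Kdr, Cs, Dlat and Pdhx, are not among the 31 named genes checked and recomputed below. Alternatives were edgeR, DESeq2 1.42.0, other scalings, filters, weights and thresholds, the label number as a block, a sensory neuron covariate and leaving out each arch; 2 subsets of arches were added after seeing the data. Gene coordinates and shared 50-base stretches are from GENCODE mouse release M21 (GRCm38).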

Additional observations from a re-analysis of the deposited data

Results flagged for a closer look

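The log2 CPM of 31 named genes, the mean log2 CPM of the 14 pathway and marker lists and the total counts were checked within each genotype for an arch far from its neighbours, over 92 groups of 5 arches. The case found was Egln1 in wild-type arches, where WT5-566 lay apart from the other 4 with a gap of 0.911 of the group's whole range, above the limit of 0.71 for 5 arches. Chance gives about 4.6 such cases in 92 groups.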

How the results depend on the processing

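Recomputed under each alternative, the log2 fold changes of the named genes gave 651 values, of which 634 kept their direction and side of FDR 0.01, 13 came to pass it, 4 (Loxl2 and Figf) no longer passed it and 0 reversed. Of the 10 genes, DESeq2 called 1 higher, and leaving out 1 arch gave 0 to 5 (5 without KO2-566). Of the 91 other pathway genes, 1 was lower and 1 higher at first (1.09% and 0.879% of all genes). The lower count became 2 at FDR 0.05, 2 with DESeq2 and 0 with only the label numbers that hold both genotypes. The higher count became 6 at FDR 0.05, 16 with DESeq2, 2 with quality weights, 0 with the label number as a block, 0 with only the shared numbers, 0 without the 2 wild-type arches lowest in neuron markers, and 1 to 5 leaving out each arch. Both subsets of arches were chosen after seeing the data. Causes were not tested. Same-numbered arches did not deviate together throughout (r -0.24 to 0.42, mean 0.10, above 0.1 in 3 of 5 pairs). Arches with different numbers had a mean r of -0.03, above 0.1 in 8 of 20 pairs. The number was not taken as a pairing, but 5 pairs are too few to decide whether it marks a shared litter. As a replicate block it gave a median log2 fold change of 0.45 over the 10 genes (lowest FDR 0.108, limma-voom). It gave 129 calls over all genes in place of 286. With a sensory neuron covariate the median was 0.66. Counts over all genes ranged from 64 to 564 lower and from 19 to 559 higher. With 5 arches per genotype and an SD of 0.61 among mutant arches, the log2 differences of the 10 genes are known only within wide intervals.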
